A study of Mus musculus with 48 samples.

Results

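The endothelin system genes in mouse astrocytes are the subject here: the receptors Ednrb and Ednra, the ligand genes Edn1 and Edn3, and the converting enzyme genes Ece1 and Ece2. These 6 genes were taken by symbol from the 24421 symbols listed in each of the 6 deposited expression tables. Endothelins are small peptides that are cut from larger precursors by the membrane metalloproteases ECE1 and ECE2. They act on a pair of G protein-coupled receptors, the type A receptor encoded by Ednra and the type B receptor encoded by Ednrb. In the brain EDNRB is best known from astrocytes, where endothelin signalling is linked to proliferation and to the reactive state, whereas EDNRA is best known from the contractile cells of vessel walls and EDN1 from endothelium.

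RNA-seq was performed on 48 libraries from astrocytes, the glial cells that regulate synapses, ions and blood flow. The developmental libraries came from cortex, hippocampus and olfactory bulb at postnatal days 1, 7 and 14 (P1, P7, P14), with 3 libraries per region and age and 4 for cortex at P14. The labels give no genotype, strain or sex for them. The later libraries came from animals at P28 labelled Gabbr1 control or Gabbr1 cKO, a conditional knockout of a subunit of the metabotropic GABA receptor. There were 4 control and 4 cKO libraries from cortex, 2 and 4 from hippocampus, and 3 and 3 from olfactory bulb. Tamoxifen is the labelled treatment of all hippocampus and olfactory bulb P28 libraries, controls included, and of the cortex libraries deposited in a second round (2 control and 1 cKO). The cortex libraries of the first round (2 control and 3 cKO) carry no treatment label. The Cre driver, the number of animals per library and the way astrocytes were isolated are not given in the sources used here. Nothing in the labels says that libraries of a group came from separate animals, so p-values measure only the spread between these libraries, which may be technical.

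Total reads per library ranged from 1773226 to 15008466. The ribosomal RNA precursor Rn45s took between 13.7% and 38.0% of reads in all but 2 libraries, hippocampus P28 cKO replicate 2 (0.594%) and olfactory bulb P28 control replicate 2 (0.476%). No astrocyte marker of a list of 9 (among them Aldh1l1, Aqp4, Slc1a3 and Sox9) was at 0 in any library, although Gfap was low in the olfactory bulb at P1 (1.66 to 2.64 normalized reads). The summed astrocyte markers rose with age in every region. In cortex they lay between 21088 and 27848 normalized reads at P1 and between 494260 and 552750 at P14. Hippocampus libraries held 13573 to 15605 at P1 and 425770 to 459550 at P14, and olfactory bulb libraries 5030 to 7159 and 123630 to 140510. Such a sum is set mainly by its most abundant genes. The median log2 change of the 9 markers from P1 to P14 was 2.42 for cortex, 4.84 for olfactory bulb and 3.19 for hippocampus. Of these markers, 8 were called higher in cortex, as were 24.0% of all genes tested. There Aldh1l1 went only from between 703.5 and 774 normalized reads at P1 to between 940 and 1099 at P14. Gfap overlapped between these ages in cortex (251 to 845 and 719 to 769). In bulk samples fewer cells of a type and less RNA per cell cannot be told apart.

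The genes lie apart in the genome (GRCm38, GENCODE). Ednrb is at chr14:103814625-103844402 and Ednra at chr8:77663031-77724464, both on the minus strand. Edn1 is at chr13:42301476-42307990, Edn3 at chr2:174760619-174784042, Ece1 at chr4:137862237-137965229 and Ece2 at chr16:20629828-20646485, all on the plus strand. Exons of Ednra overlap exons of the opposite-strand transcript 4933431K23Rik, and exons of Edn1 overlap those of the antisense gene Gm47118. Exons of Ece2 overlap the same-strand protein-coding gene Gm49333. Whether reads were counted by strand is not given in the sources used here, so the values of these 3 genes are uncertain to the extent that reads of the overlapping models were counted with them.

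The sequences just upstream of the start of Ednrb and of Ece1 are shown because these members were called higher at P14 than at P1 in all 3 regions, and because the windows shown overlap no annotated exon. RefSeq gives Ece1 4 starts, and the windows of the other 3 are overlapped by Ece1 exons and are not shown. Each line gives 250 bases that end at the RefSeq transcription start (GRCm38.p6), read on the gene's strand, and capitals mark the half-site TTGGC of the nuclear factor I family, or its reverse complement GCCAA.
Ednrb, chr14:103843702-103843951, minus strand: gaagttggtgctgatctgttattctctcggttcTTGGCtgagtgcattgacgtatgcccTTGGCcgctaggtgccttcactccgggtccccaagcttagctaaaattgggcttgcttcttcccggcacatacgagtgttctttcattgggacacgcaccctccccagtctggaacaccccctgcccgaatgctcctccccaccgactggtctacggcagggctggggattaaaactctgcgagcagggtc
Ece1, chr4:137861987-137862236, plus strand: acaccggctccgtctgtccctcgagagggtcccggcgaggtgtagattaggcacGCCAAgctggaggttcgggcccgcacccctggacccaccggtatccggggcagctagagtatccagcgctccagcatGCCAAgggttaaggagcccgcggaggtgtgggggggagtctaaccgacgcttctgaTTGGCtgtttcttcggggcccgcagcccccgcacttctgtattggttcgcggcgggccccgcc
Nuclear factor I and SOX proteins are transcription factors of astrocyte development. The Ednrb window held 2 half-sites and the Ece1 window held 3. A half-site was present in 41.5% of the 32851 RefSeq upstream windows of this length, so its presence is common. The SOX core ACAAT, or ATTGT on the other strand, was in neither window and occurred in 27.7% of all windows. Such matches describe the letters of the window only. The Ednrb window lies inside the gene span of the GENCODE model, which starts further upstream, but in none of its exons.

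Of the 6 members, Ednrb was by far the most abundant in every group. Values are the authors' normalized reads, a gene's reads divided by 1 size factor per library, and each region was scaled on its own, so that levels are compared only within a region. In cortex the 3 P1 libraries held 1860.1, 2109.9 and 2220.0 normalized reads of Ednrb. The 3 P7 libraries held 7318, 7872 and 6287. The 4 P14 libraries held 3429, 3605, 3616 and 3597. The cortical level was thus highest at P7 and lay at P14 between the other 2 ages, with no overlap between any of the groups. The summed markers of oligodendrocyte precursors also peaked at P7 in cortex (1168 to 1247 normalized reads at P1, 1585 to 2184 at P7 and 1039 to 1162 at P14). Unlike Ednrb, they lay lower at P14 than at P1. In hippocampus that sum peaked at P7 too (342 to 540, 1119 to 1529 and 920 to 1021), and in olfactory bulb it was highest at P14 (125 to 162, 513 to 1054 and 1172 to 1220). The markers of mature oligodendrocytes in cortex went from 855 to 1039 at P7 up to 15195 to 26006 at P14. The part of these cells in the Ednrb values was not tested. Ednrb was 1.79 higher on the log2 scale at P7 than at P1 (SE 0.098, adjusted p = 5.8e-08), a 3.47-fold ratio of means. From P7 to P14 it fell by 1.00 (SE 0.092, adjusted p = 1.9e-06). P14 remained above P1 by 0.79 (SE 0.092, adjusted p = 5.2e-06), which quantile scaling put at 0.40. Per kilobase of exon, Ednrb ranked between 25 and 32 of 23384 genes in the P7 cortex libraries and between 109 and 118 at P14.

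In hippocampus Ednrb rose early and stayed high. The P1 libraries held 1055, 1068 and 823 normalized reads, the P7 libraries 4940.0, 4496 and 4839, and the P14 libraries 7019.8, 5563 and 7248. Each age lay above the one before it without overlap. The rise from P1 to P7 was 2.28 on the log2 scale (SE 0.14, adjusted p = 6.9e-07). The step from P7 to P14 was smaller, at 0.47 (SE 0.14, adjusted p = 0.024). It had the opposite sign under quantile scaling (-0.29, adjusted p = 0.13) and lost its call without P7 replicate 1 or 2 or P14 replicate 1 or 3 (changes of 0.39 to 0.49), with limma without trend (adjusted p = 0.11) and with array weights (adjusted p = 0.082), so its direction is uncertain. P14 against P1 gave 2.75 (SE 0.14, adjusted p = 3.0e-08).

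In olfactory bulb Ednrb rose in both steps, and the later step was the larger in the main fit. Ednrb stood at 393, 565 and 442 normalized reads at P1, at 1436, 1812 and 775 at P7, and at 7279, 6374 and 5877 at P14. The P7 libraries had the widest relative spread of the 3 ages (SD 39.2% of the mean, against 19% and 10.9% at P1 and P14), and replicate 3 was the lowest. That library also had the lowest sum of astrocyte markers at P7 (10567 against 15172 and 19259 normalized reads) and of oligodendrocyte precursor markers (513 against 1053 and 1054). The change was 1.45 from P1 to P7 (SE 0.26, adjusted p = 0.0057) and 2.36 from P7 to P14 (SE 0.26, adjusted p = 4.6e-05). Under quantile scaling the later step was 1.63, and among the scalings tried the first step reached 1.68. Which step was larger thus depends on the scaling, and the steps were not tested against each other. The P14 mean was 13.9 times the P1 mean (log2 change 3.81, SE 0.26, adjusted p = 8.3e-07).

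**Figure D1:**
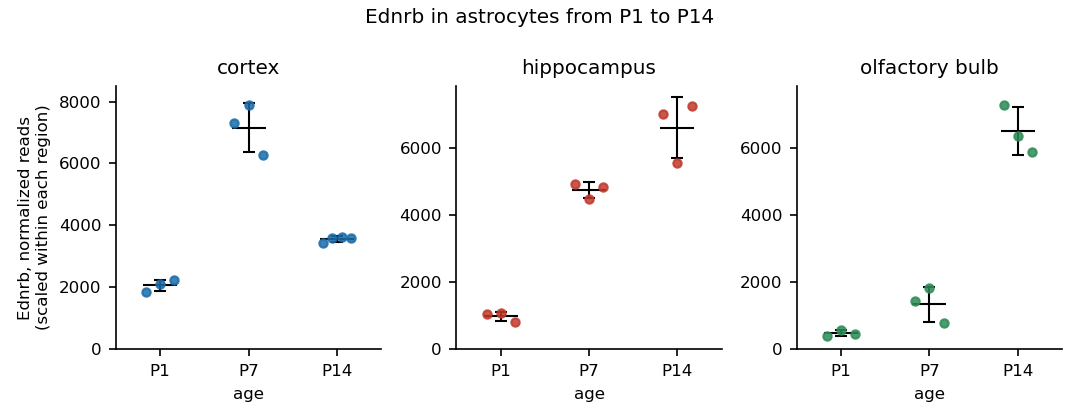
Ednrb by age in each region, in normalized reads scaled within the region. Points are libraries, the black line is the mean and the bars are the SD. In cortex the P7 libraries (6287 to 7872) are the highest, whereas in hippocampus and olfactory bulb the P14 libraries are.

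The size of the Ednrb change depended on the region. A difference between regions in a change within each region does not depend on how the tables were scaled by a constant, and was tested as an interaction over the 28 developmental libraries. The P1 to P14 change of Ednrb was larger in hippocampus than in cortex by 1.96 on the log2 scale (SE 0.26, adjusted p = 6.3e-06). It was larger in olfactory bulb than in cortex by 3.02 (SE 0.26, adjusted p = 1.2e-09) and larger in olfactory bulb than in hippocampus by 1.06 (SE 0.27, adjusted p = 0.0065). The same comparison for P7 to P14 was chosen after seeing the data. It gave differences of 1.47 (adjusted p = 0.00092), 3.36 (adjusted p = 8.9e-10) and 1.89 (adjusted p = 2.5e-05) for the same 3 pairs of regions, so the fall in cortex differed from the course in both other regions. All 3 differences between regions kept their sign and call, for both spans of age, under TMM and quantile scaling, a pseudocount of 8, edgeR on reads and the leaving out of each library.

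Ednra was present at much lower levels, and it rose with age in every region. In cortex it was counted at 17.6, 47.1 and 47.5 normalized reads at P1, at 73.9, 82.7 and 92.0 at P7, and at 106, 104, 161 and 124 at P14. The ages did not overlap, and the low P1 library was replicate 1. The P7 to P1 change was 1.25 on the log2 scale (SE 0.32, adjusted p = 0.0080), and 0.79 (adjusted p = 0.015) without that library. P14 exceeded P1 by 1.81 (SE 0.30, adjusted p = 0.00012). The step from P7 to P14 was 0.56 (SE 0.30, adjusted p = 0.13), which did not pass the test but did with TMM scaling (0.75, adjusted p = 0.049), with DESeq2 (0.75, adjusted p = 0.026) and in a fit of the 2 ages alone (adjusted p = 0.023).

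In hippocampus Ednra went from 27.4, 7.57 and 9.83 normalized reads at P1 to 73.1, 73.8 and 72.9 at P7 and 126, 77.2 and 129 at P14. Most of this gain was made by P7, where the change from P1 was 2.43 (SE 0.45, adjusted p = 0.0026), while the further 0.55 to P14 was not called (adjusted p = 0.38). P14 exceeded P1 by 2.98 (SE 0.45, adjusted p = 0.00019). In olfactory bulb Ednra was near the limit of counting at P1, with 19, 8 and 10 reads. The normalized reads were 6.81, 3.52 and 5.52 at P1, 45.5, 56.5 and 24.3 at P7, and 153, 156 and 249 at P14. Both steps were called, 2.73 from P1 to P7 (SE 0.40, adjusted p = 0.0018) and 2.16 from P7 to P14 (SE 0.40, adjusted p = 0.0012). The whole change of 4.89 (SE 0.40, adjusted p = 2.4e-06) was the largest of any member in any region.

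The P1 to P14 change of Ednra was larger in olfactory bulb than in cortex by 3.08 (SE 0.55, adjusted p = 0.00012) and than in hippocampus by 1.92 (SE 0.57, adjusted p = 0.019). The second difference was not called without hippocampus P1 replicate 1 (1.40, adjusted p = 0.081) or olfactory bulb P1 replicate 2 (1.70, adjusted p = 0.056). Between hippocampus and cortex it differed by 1.17 with a 95% interval from 0.036 to 2.30 (adjusted p = 0.16), and it was called without P1 replicate 1 of either region.

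Because Ednra is known from vessel walls, markers of vascular cells are given beside it. A list of 11 mural cell and fibroblast genes, which includes Pdgfrb, Rgs5 and Acta2, summed to between 140 and 287 normalized reads at P1, 420 and 591 at P7, and 570 and 1478 at P14 in olfactory bulb. The sum, like Ednra, was higher at P14 than at P1. Of 7 of these genes tested there, 4 were called higher at P14 than at P1 (median log2 change 1.94), as were 24.8% of all genes. From P7 to P14, where the sums overlapped, 1 was called higher (median 0.12), beside 20.4% of all genes. Pdgfrb was at 18.6 to 52.4 normalized reads at P1 and 81.5 to 192 at P14 in olfactory bulb, and Rgs5 at 14.7 to 23.7 and 119 to 678. Acta2 was at 0 in the 3 olfactory bulb P14 libraries, Myh11 in 2 of them and Lum in 1. Acta2 was already at only 0.36 to 1.66 at P1, and 3 reads equal 4.14 to 5.96 normalized reads in the P14 libraries. In hippocampus the same sum was 238 to 608 at P1, 634 to 925 at P7 and 162 to 362 at P14. The P14 sums lay below all P7 sums and overlapped those of P1, while Ednra was higher at P14 than at P1. Pdgfrb overlapped between P1 (71.3 to 85.1) and P14 (70.6 to 179) there, and Rgs5 was lower at P14 (25.4 to 48.4) than at P1 (48.5 to 59.8). Acta2 and Myh11 were at 0 in all 3 P14 libraries, and Acta2 was at most 1.84 at P1. In cortex the sum was 86.1, 545 and 697 at P1, 634 to 871 at P7, and 407, 342, 1022 and 446 at P14. The cortex P1 library with the least Ednra also had the lowest mural sum, and the P14 library with the most (replicate 3) had the highest. The part of vascular cells in the Ednra values was not tested.

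Within a library, levels of the 2 receptors can be set against each other per kilobase of exon, a ratio that does not depend on the scaling. Ednrb exceeded Ednra in every library. In cortex the ratio was 57.5 to 136 at P1, 87.7 to 127 at P7 and 28.9 to 44.3 at P14, so that the P14 ratios lay below all earlier ones. In hippocampus it stayed between 71.7 and 92.5 at P14, against 78.2 to 86.8 at P7 and 49.4 to 181 at P1. In olfactory bulb it was 74.0 to 206 at P1, 40.5 to 41.2 at P7 and 30.4 to 61.0 at P14.

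The ligand genes were scarcely counted. Edn1, which encodes the endothelin made mainly by endothelium, had a mean below 10 normalized reads in each of the 6 tables and was therefore in no test. In cortex it had 35, 26 and 17 reads at P1, 9, 1 and 13 at P7, and 10, 0, 83 and 5 at P14, where replicate 3 stood apart. In olfactory bulb it had 0 reads in each P1 library, 0, 2 and 2 at P7, and 6, 2 and 7 at P14. In hippocampus it had 5, 0 and 2 reads at P1, 10, 8 and 9 at P7, and 0 in each P14 library.

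Edn3 encodes the ligand that acts mainly through EDNRB and is known from neural crest development. In cortex it had 1, 95 and 43 reads at P1, 44, 34 and 25 at P7, and 22, 25, 168 and 30 at P14. These groups overlapped, and no change passed the test (adjusted p = 0.16 for P14 against P1, log2 change 1.41, SE 0.84). Without P1 replicate 1 that change was 0.16, and without P1 replicate 2 it was 2.30 and called (adjusted p = 0.031), as it was with quantile scaling (2.05, adjusted p = 0.039), so the cortex value depends on single libraries and on the scaling. In olfactory bulb Edn3 had 17, 7 and 6 reads at P1, 11, 15 and 33 at P7, and 2, 2 and 17 at P14. In hippocampus it had 22, 10 and 5 reads at P1, 35, 12 and 7 at P7, and 0 in each P14 library.

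Both ligand genes were thus at 0 reads in all 3 hippocampus P14 libraries after being counted in every P7 library of that region. The limit that a count of 0 allows, 3 reads, equals 3.22 to 5.37 normalized reads in these libraries, which covers counting error only. At P7 Edn3 was at 6.62 to 21.1 normalized reads, above that limit in every library. Edn1 at P7 (5.0 to 8.52) and Edn3 at P1 (3.07 to 7.84) overlapped the limit. With no filter on low genes, both were called lower at P14 than at P7 (adjusted p = 0.0015 for Edn1 and 0.0020 for Edn3), 2 of the 4806 genes called in that fit. With the filter, which neither ligand gene passed in this region, 30.1% of all genes were called in this comparison. That share is thus of another set of genes. The P14 values of 0 have no spread. These p-values therefore rest on the spread at other ages and of other genes, and on the pseudocount of 1. The other ligand calls without a filter went both ways. In hippocampus Edn1 was called higher at P7 than at P1 (adjusted p = 0.017) and Edn3 lower at P14 than at P1 (adjusted p = 0.0063). In olfactory bulb Edn1 was called higher at P14 than at P1 (adjusted p = 0.0010) and than at P7 (adjusted p = 0.0077), from the few reads given above. With the filter, which these genes did not pass, 18.1%, 49.5%, 56.1% and 47.0% of all genes were called in the same order of comparisons. Endothelial markers in hippocampus were also lower at P14 than at P7. The sum of 10 endothelial genes in that region was 350 to 696 normalized reads at P7 and 10.7 to 136 at P14. Cldn5, Esam and Tie1 were at 0 in all 3 hippocampus P14 libraries. In cortex the P1 library with the least Edn3 also had the lowest sum of its age, and the P14 library with the most Edn3 had the highest. P1 replicate 1 summed to 43.5 against 372 and 560 in the other P1 libraries, and P14 replicate 3 summed to 866 against 93.7 to 232. Edn1 went the other way at P1, where replicate 1 had the most (9.94 normalized reads). At P14 the most Edn1 was in replicate 3 (26.2). In olfactory bulb the sum rose from between 22.9 and 30.5 at P1 to between 308 and 1576 at P14. The part of endothelial cells in the ligand values was not tested.

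**Figure D2:**
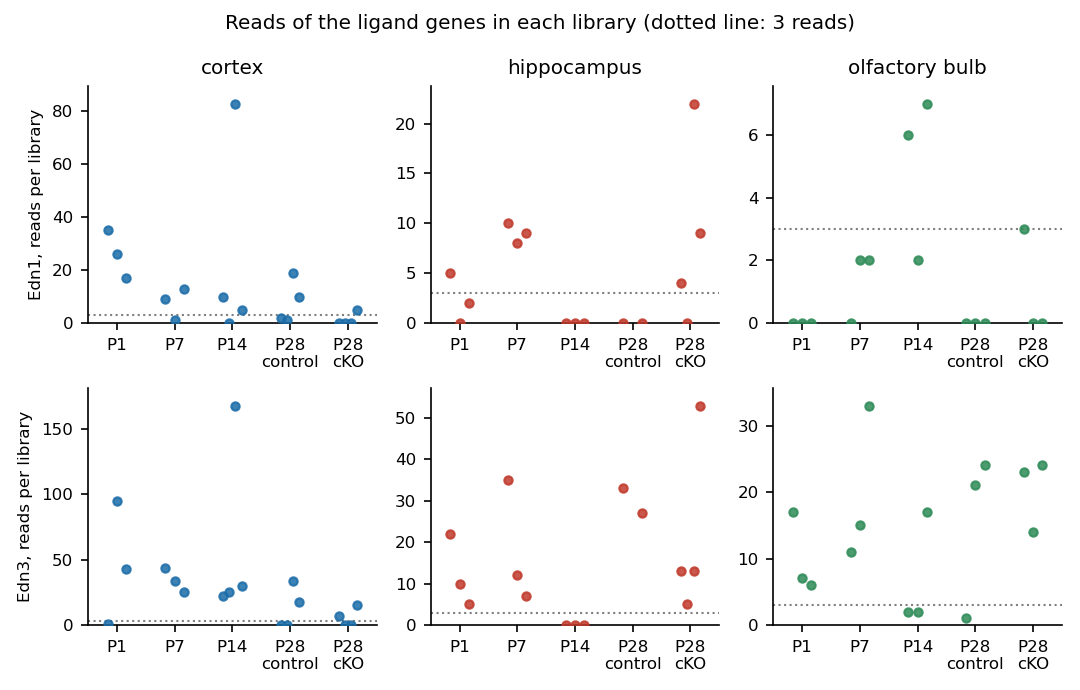
Reads of Edn1 and Edn3 in each library by region, age and, at P28, genotype, with a dotted line at 3 reads. Cortex P14 replicate 3 stands apart for both genes (83 and 168 reads), and all 3 hippocampus P14 libraries are at 0.

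Ece1, the enzyme that cleaves big endothelin to the active peptide, rose with age in every region. In cortex it was counted at 214.5, 307 and 248 normalized reads at P1, 432, 360.3 and 334 at P7, and 506, 511, 531 and 491 at P14. Libraries of different ages did not overlap. The changes were 0.55 from P1 to P7 (SE 0.13, adjusted p = 0.0061), 0.45 from P7 to P14 (SE 0.13, adjusted p = 0.0096) and 1.00 in all (SE 0.13, adjusted p = 1.1e-05). In hippocampus Ece1 went from 43.8, 56.6 and 37.5 normalized reads at P1 to 239, 206 and 226 at P7 and 205, 251 and 387 at P14. Here the rise was made by P7 (2.28, SE 0.26, adjusted p = 8.2e-05), and P7 and P14 overlapped (0.28, adjusted p = 0.45). The whole change was 2.56 (SE 0.26, adjusted p = 8.9e-06).

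In olfactory bulb Ece1 stood at 139.8, 118 and 106 normalized reads at P1, 180.1, 137 and 176 at P7, and 292, 319.8 and 332 at P14. Its step to P7 of 0.43 did not pass the test (SE 0.18, adjusted p = 0.17; 0.40 and adjusted p = 0.041 with array weights), and the step to P14 of 0.94 did (SE 0.18, adjusted p = 0.0015). The whole change was 1.37 (SE 0.18, adjusted p = 7.6e-05). The P1 to P14 change of Ece1 was larger in hippocampus than in cortex by 1.55 (SE 0.26, adjusted p = 0.00015) and smaller in olfactory bulb than in hippocampus by 1.18 (difference -1.18, SE 0.27, adjusted p = 0.0027). Between olfactory bulb and cortex it differed by 0.37 with a 95% interval from -0.17 to 0.91 (adjusted p = 0.34).

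Ece2, a related protease of the secretory pathway, had no change called by the main test in cortex or hippocampus. Its P1 to P7 change was called in cortex with quantile scaling (0.64, adjusted p = 0.048), and in hippocampus with array weights (0.96, adjusted p = 0.0033) and in a fit of the 2 ages alone (0.80, adjusted p = 0.042). In cortex its group means were 46.8 ± 7.68 (SD, n = 3) at P1, 66.0 ± 14.7 (n = 3) at P7 and 50.9 ± 10.3 (n = 4) at P14. In hippocampus they were 49.2 ± 18.2, 85.5 ± 23.7 and 54.1 ± 32.0 (SD, n = 3 each). In olfactory bulb Ece2 was highest at P7, with 60.2, 72.2 and 54.0 normalized reads against 19.7, 26.4 and 26.5 at P1 and 43.7, 27.6 and 16.7 at P14. The P7 libraries lay above all others of that region. The rise of 1.33 to P7 (SE 0.37, adjusted p = 0.046) lost its call without any 1 of the 6 libraries (adjusted p between 0.071 and 0.20), and with TMM or quantile scaling. The later change of -1.15 (SE 0.37, adjusted p = 0.027) lost it without 4 of 6. Per kilobase, Ece1 exceeded Ece2 in every library except among the hippocampus P1 libraries, where the ratio was 0.52 to 1.59.

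**Figure D3:**
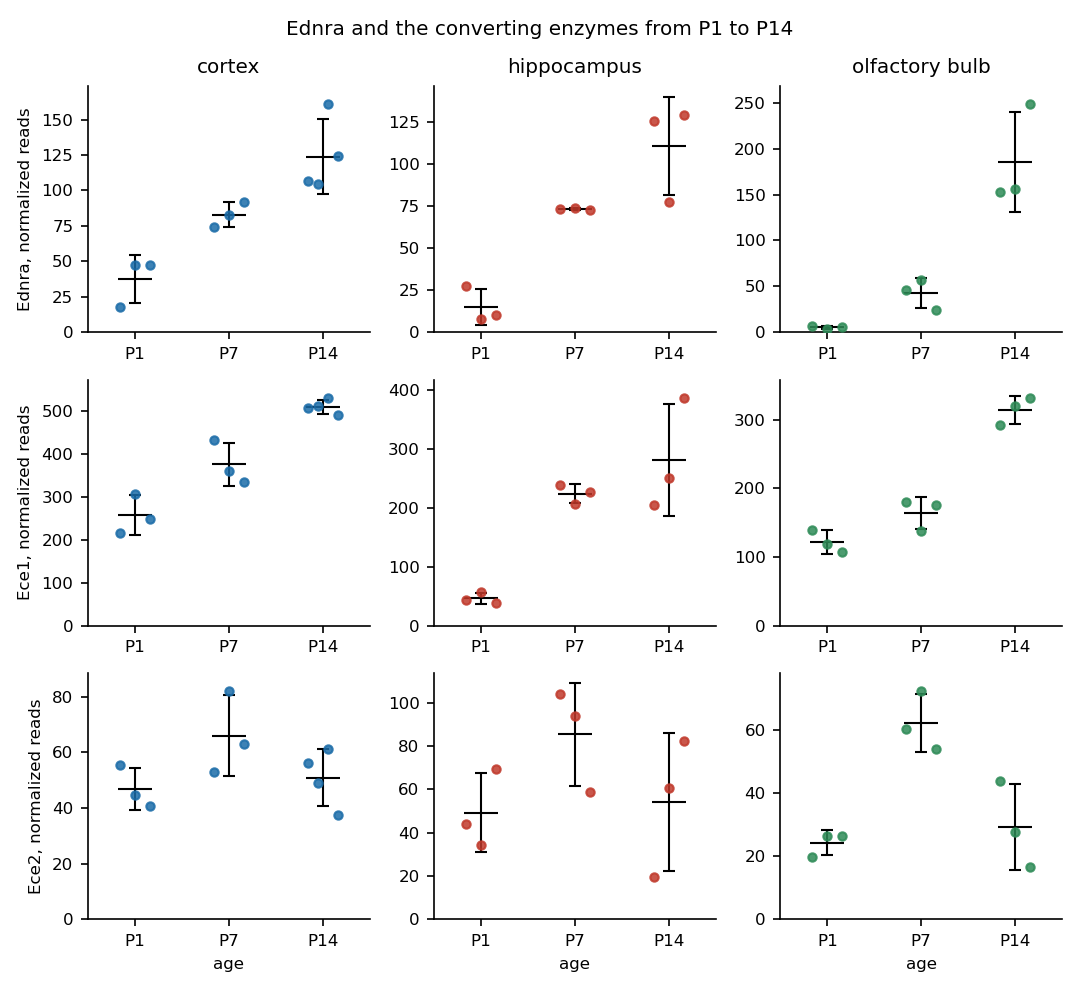
Ednra, Ece1 and Ece2 by age in each region, in normalized reads scaled within the region. Points are libraries, the black line is the mean and the bars are the SD. Ednra and Ece1 are higher at P14 than at P1 in all 3 regions, while Ece2 peaks at P7 in olfactory bulb (54.0 to 72.2).

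Counts of called members are set beside those of all genes tested, with an adjusted p under 0.05 as the rule. In cortex 5 members passed the filter on low values and 4 did in each of hippocampus and olfactory bulb. From P1 to P7, 3 of 5 rose in cortex (Ednrb, Ednra, Ece1), where 33.7% of all genes were called and 15.6% rose. In hippocampus the same 3 of 4 rose, beside 18.1% called and 11.2% risen. In olfactory bulb 3 of 4 rose (Ednrb, Ednra, Ece2), beside 10.6% called and 7.59% risen. From P7 to P14, Ece1 rose and Ednrb fell in cortex, where 49.8% of genes were called, 18.6% higher and 31.3% lower. In hippocampus only Ednrb of the 4 was called, beside 30.1% called and 12.5% risen. In olfactory bulb Ednrb, Ednra and Ece1 rose and Ece2 fell, beside 47.0% called, 20.4% risen and 26.6% fallen. From P1 to P14, Ednrb, Ednra and Ece1 rose in each region. That is to be read against 64.4% of genes called and 24.0% risen in cortex. Hippocampus had 49.5% called and 21.0% risen, and olfactory bulb 56.1% and 24.8%. The median log2 change of all genes from P1 to P14 was -0.27 in the cortex table, -0.29 in the hippocampus table and -0.24 in the olfactory bulb table. TMM or quantile scaling moved the cortex median up by 0.28 or 0.30. Every member called from P1 to P14 kept its sign and call under these scalings.

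In the comparisons between regions of the P1 to P14 change, 2 of the 4 members tested were called for hippocampus against cortex (14.2% of all genes), 2 for olfactory bulb against cortex (23.5%) and 3 for olfactory bulb against hippocampus (18.2%). For P7 to P14 the counts were 1 (7.97%), 2 (24.9%) and 2 (20.1%). Ednra joined Ednrb in the last 2 of these, with larger changes in olfactory bulb than in cortex by 1.60 (adjusted p = 0.034) and than in hippocampus by 1.61 (adjusted p = 0.046). Leaving out 1 library at a time ended the first call for 6 of 13 libraries and the second for 7 of 12.

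**Figure D4:**
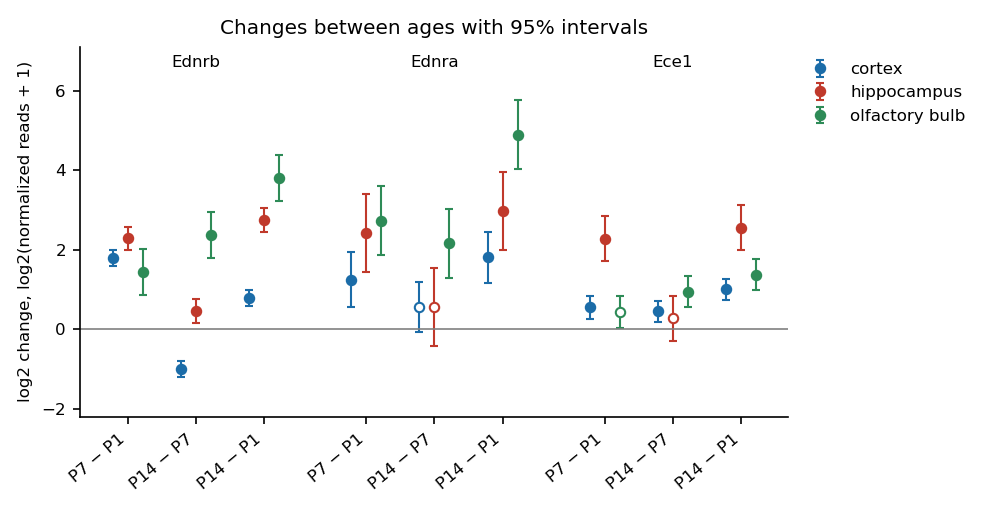
Change of Ednrb, Ednra and Ece1 between ages within each region, as the difference of log2(normalized reads + 1) with its 95% interval. Filled points passed the test and open points did not. From P7 to P14 the cortical change of Ednrb lies below 0, whereas the changes in hippocampus (0.47) and olfactory bulb (2.36) lie above it.

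Genes that act around these receptors were followed from 4 lists. Of 8 relatives of the members, 3 passed the filter in the developmental tables. Gpr37l1, which encodes an orphan receptor related in sequence to the endothelin receptors, rose from 42.4 ± 3.85 to 2122 ± 160 normalized reads in cortex (SD, n = 3 and 4; log2 change 5.61, adjusted p = 2.1e-12). It also rose by 7.49 in hippocampus (adjusted p = 1.2e-07) and 6.88 in olfactory bulb (adjusted p = 1.1e-06). Its close relative Gpr37 rose by 3.35 in cortex (adjusted p = 5.0e-08), 6.42 in hippocampus (adjusted p = 2.0e-06) and 2.08 in olfactory bulb (adjusted p = 0.0041). Mature oligodendrocyte markers were called higher over the same span, 5 of the 6 tested in cortex (median 5.72) and all 4 tested in both hippocampus (median 4.82) and olfactory bulb (median 4.02), and their part in the Gpr37 values was not tested. Mme, which encodes neprilysin, a peptidase of the same family as the converting enzymes, fell by 3.96 in cortex (adjusted p = 8.4e-05) and by 3.71 in hippocampus (adjusted p = 0.0066) and rose by 2.8 in olfactory bulb (adjusted p = 0.0021). Edn2, the third ligand gene, had at most 3 reads in any library.

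All 8 genes of the G protein list were tested. From P1 to P14, cortex had 2 rises and 3 falls, hippocampus 4 rises and 2 falls, and olfactory bulb 6 rises and 2 falls. Of all genes, 64.4%, 49.5% and 56.1% were called and 24.0%, 21.0% and 24.8% rose in these regions. Gna13, which encodes a G protein alpha subunit, rose in all regions, by 1.45 in cortex, 1.69 in hippocampus and again 1.45 in olfactory bulb (adjusted p between 5.4e-09 and 8.9e-05). Gnai1 and Gnai3, which encode inhibitory G protein subunits, fell in each region. Gnai1 fell by 0.66, 1.19 and 1.57 and Gnai3 by 0.51, 0.63 and 0.60 in the same order. The list medians were 0.0019, 0.52 and 0.61, beside -0.27, -0.29 and -0.24 over all genes.

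Of the phospholipase C and calcium release list of 10 genes, 8 were tested in cortex and hippocampus and 9 in olfactory bulb. Cortex had 4 rises and 4 falls, hippocampus 5 rises and 2 falls, and olfactory bulb 5 rises and 1 fall. Of all genes, 64.4%, 49.5% and 56.1% were called and 24.0%, 21.0% and 24.8% rose in these regions. The list medians were -0.057, 0.87 and 1.75, beside -0.27, -0.29 and -0.24 over all genes. Itpr2, which encodes the main inositol trisphosphate receptor of astrocytes, had the largest rise of this list in each region. Cortex means were 380 ± 81.0 normalized reads at P1 and 1487 ± 197 at P14 (change 1.98), hippocampus means 201 ± 12.4 and 1414 ± 168 (2.8), and olfactory bulb means 21.2 ± 5.55 and 958 ± 160 (5.44; SD, n = 3 or 4, adjusted p between 2.9e-08 and 1.6e-07). Prkce, encoding a protein kinase C, fell by 2.20 in cortex (adjusted p = 8.3e-06) and by 2.28 in hippocampus (adjusted p = 0.00012). Plcb4, a phospholipase C gene, fell by 1.52 in hippocampus (adjusted p = 0.00096) and by 1.63 in olfactory bulb (adjusted p = 9.6e-05). Itpr1 fell by 2.26 in cortex (adjusted p = 5.4e-05).

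The desensitisation list holds receptor kinases and arrestins, and all 6 of its genes were tested. There were 2 rises and 3 falls in cortex, and 1 rise and 2 falls in each other region. Arrb1, which encodes an arrestin, rose in all regions, by 1.61 in cortex, 1.49 in hippocampus and likewise 1.55 in olfactory bulb (adjusted p between 2.0e-09 and 4.0e-05). Grk5, which encodes a receptor kinase, fell by 1.56, 4.30 and 0.91 (adjusted p = 9.2e-05, 0.00076 and 0.024). In hippocampus that fall ended at 0 to 8.60 normalized reads at P14. No gene of the 4 lists was called between genotypes at P28.

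The genes whose course over the 28 developmental libraries was most like that of each member were ranked among 10838 genes by the root mean square difference of log2 values after each gene was centred within its table. For Ednrb these were Angpt1 (0.30), Hsdl2 (0.31), Slc6a11 (0.33), Prrx1 (0.35) and Vcam1 (0.35), against a median of 1.39 over all genes. Angpt1 also peaked at P7 in cortex, with means of 91.3, 394 and 130 normalized reads at P1, P7 and P14. Slc6a11 encodes the GABA transporter GAT-3 of astrocytes and Angpt1 the growth factor angiopoietin-1. For Ednra the nearest were Grm3, a metabotropic glutamate receptor gene (0.42), Celrr (0.43) and Kank1 (0.44), with a median of 1.65. For Ece1 they were Ctnnd2 (0.32), Ptn (0.32) and Sptbn1 (0.33), with a median of 1.02. For Ece2 they were Vps13c, Tubgcp5 and Med12l (0.45 each), with a median of 0.84. Libraries are shared by all these values, so the distances are descriptive.

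At P28 the label check came first. Gabbr1 was at 927 to 1930.1 normalized reads in control cortex and 89.8 to 211 in cKO cortex. In hippocampus it was at 779.8 and 824 in controls and 152 to 379.9 in cKO libraries, and in olfactory bulb at 184 to 318 and 63.6 to 99.5. It was lower in every cKO library than in every control library of its region. Only in cortex did the difference pass the adjusted test (log2 change -3.45, SE 0.29, adjusted p = 4.4e-05), while the unadjusted p was 0.00094 in hippocampus and 0.0011 in olfactory bulb (adjusted p = 0.94 and 0.88).

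No member was called between genotypes in any region. The share of all genes called by limma was 0.00982% in cortex (1 gene, Gabbr1) and 0.0% in both other regions, so the test called next to nothing here. At an unadjusted p under 0.05 there were 221, 296 and 349 genes. DESeq2 on reads called 1 cortex gene, 1 hippocampus gene and 22 olfactory bulb genes, and edgeR called 1, 0 and 0, none of them a member.

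In cortex Ednrb was at 2168, 1732, 1872 and 1927 normalized reads in controls and at 1709, 1926, 2159 and 1887 in cKO libraries. The groups overlapped fully, and the log2 difference was -0.0037 with a 95% interval from -0.35 to 0.35 (adjusted p = 1.00). Differences within the first and second round of deposit were -0.011 and -0.0093. Ednra was at 86.6, 73.6, 179 and 87.8 in controls and at 70.7, 130.1, 193 and 129 in cKO libraries (0.30, 95% interval -0.43 to 1.02). Its difference was 0.60 within the first round and 0.037 within the second, which has only 1 cKO library. For Ece1 the interval was -0.44 to 0.52, and for Ece2 -0.94 to 1.21. Control replicate 3 had the most Ednra of the controls, together with the highest endothelial sum of the P28 cortex libraries (591 normalized reads). The most Ednra of all P28 cortex libraries was in cKO replicate 3 (193), and endothelial sums of cKO libraries were at most 403. Mural and fibroblast sums were 176 to 467 in controls and 223 to 397 in cKO libraries.

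In hippocampus 3 members did not overlap between the 2 control and 4 cKO libraries. Ednrb was at 1600.3 and 1719.7 normalized reads in controls and at 2133, 2583, 2365 and 2370.3 in cKO libraries (0.51, SE 0.25, unadjusted p = 0.074, adjusted p = 0.94). Ednra was at 53.2 and 56.0 in controls and at 189, 498, 226 and 114 in cKO libraries (2.00, SE 0.52, unadjusted p = 0.0037, adjusted p = 0.94). Ece1 was at 180.7 and 202 in controls and at 424, 246, 261 and 320.4 in cKO libraries (0.67, SE 0.32, unadjusted p = 0.061, adjusted p = 0.94). All 3 were higher in every cKO library, as were 7.08% of all genes tested in this region, and none passed the adjusted test.

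The highest Ednra value belonged to cKO replicate 2, the library with little Rn45s. Without it the differences were 1.62 for Ednra (adjusted p = 0.56), 0.46 for Ednrb and 0.78 for Ece1. The mural and fibroblast sum was also higher in every cKO library (354.5 to 598) than in both controls (193 and 295). Of its genes, Pdgfrb was at 90.73 and 159.2 normalized reads in controls and at 187.9 to 223.9 in cKO libraries. Rgs5 did not overlap either (12.51 and 16.01 in controls, 39.92 to 88.12 in cKO libraries). Acta2 overlapped (0.8897 and 10.95 in controls, 0 to 19.25 in cKO libraries). In cKO replicate 2, 7 of the 11 genes of the sum were at 0, Acta2, Myh11 and Tagln among them. Aqp4 was at 3729 and 4148 normalized reads in controls and between 5066 and 14460 in cKO libraries. Slc1a3 did not overlap either (8668 and 11610 in controls, 13340 to 21530 in cKO libraries). Aldh1l1 (328 and 507 in controls, 195 to 631 in cKO libraries) and Gfap (970 and 1115, 591 to 2029) overlapped. So did the sum of the 9 astrocyte markers, at 161820 and 178910 in controls and 124740 to 376830 in cKO libraries. Choroid plexus genes summed to between 68755 and 140930 in controls and between 11691 and 128230 in cKO libraries. The part of these cell types in the differences was not tested.

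In olfactory bulb Ednrb was at 4575, 4169 and 4971 normalized reads in controls and at 5692, 5220.0 and 6232 in cKO libraries. The groups did not overlap, as for 5.3% of all genes with cKO above control, and the difference of 0.32 had a 95% interval from -0.12 to 0.76 (adjusted p = 0.88). Ece2 was at 54.0, 78.3 and 31.2 in controls and at 18.9, 18.9 and 27.5 in cKO libraries. Its difference was -1.21 (SE 0.51, unadjusted p = 0.037, adjusted p = 0.88), and 4.71% of all genes had every cKO library below every control. Without control replicate 2, the library with little Rn45s, it was -0.91. Ednra was at 55.1, 247 and 109 in controls and at 142, 122 and 177 in cKO libraries. The control with 247 was that same replicate 2, and without it the Ednra difference went from 0.35 to 0.90 (adjusted p = 1.00), while without control replicate 1 it was -0.17 (adjusted p = 0.88). Ece1 overlapped between genotypes, with 271 to 654 in controls and 345 to 642 in cKO libraries.

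Ligand reads at P28 were as sparse as before. Edn1 had 2, 1, 19 and 10 reads in control cortex and 0, 0, 0 and 5 in cKO cortex. It had 0 reads in each control library of hippocampus and olfactory bulb, against 0 to 22 and 0 to 3 reads in their cKO libraries. Edn3 had 0, 0, 34 and 18 reads in control cortex and 7, 0, 0 and 15 in cKO cortex. It had 33 and 27 reads in hippocampus controls against 13, 5, 13 and 53 in cKO libraries, and 1, 21 and 24 against 23, 14 and 24 in olfactory bulb. All these groups overlapped, for Edn1 in hippocampus only in that 1 of 4 cKO libraries was at 0 as both controls were.

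The library numbers in the P28 titles run in consecutive sets of the same genotype across regions. Whether the libraries of a set share an animal is not stated, and the comparison between regions treated them as independent. The genotype differences of the members were not called as different between any pair of regions. The share of all genes called was 0.0% for hippocampus against cortex, 0.0% for olfactory bulb against cortex and 0.0% for olfactory bulb against hippocampus. At an unadjusted p under 0.05 there were 287, 254 and 382 genes, and edgeR on reads called 0 in each. For Ednrb the difference between hippocampus and cortex was 0.51 with a 95% interval from -0.0027 to 1.02.

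**Figure D5:**
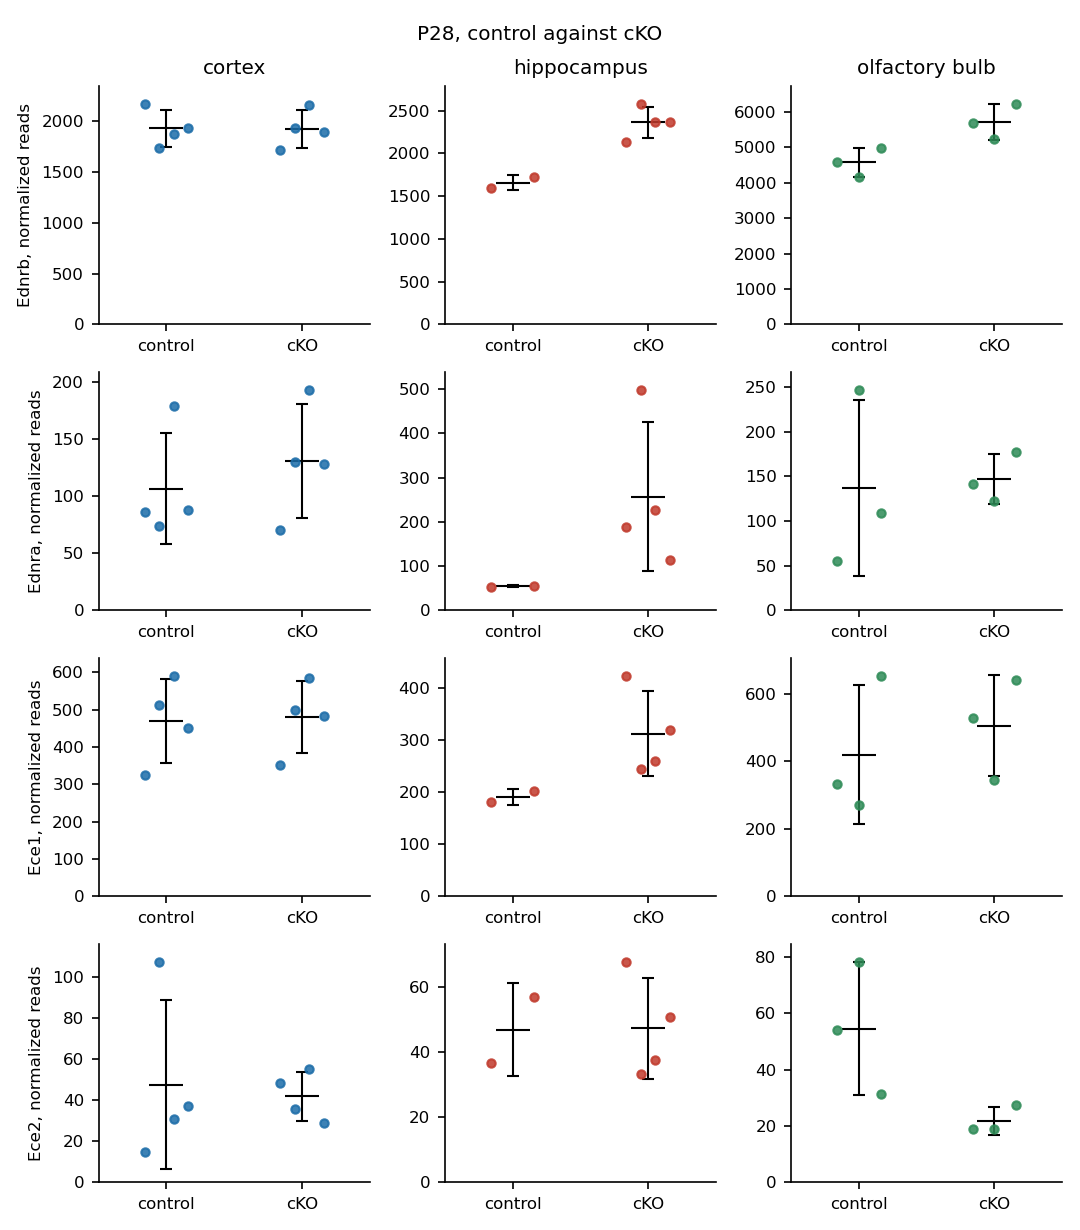
Ednrb, Ednra, Ece1 and Ece2 at P28 in control and cKO libraries of each region, in normalized reads scaled within the region. Points are libraries, the black line is the mean and the bars are the SD. The cortex groups overlap for all 4 genes, and the hippocampus groups, with 2 control libraries, do not overlap for Ednrb, Ednra and Ece1.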

How the data were processed

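RNA-seq libraries had been made with the Trio RNA-seq kit, per the labels' protocols. Reads had been processed with FastQC, MultiQC, STAR 2.5.0a and DESeq2 1.20.0 on mm10, per the submitters' processing notes. The counting tool, its strand setting and the annotation are not given in the sources used here. The 6 deposited tables hold the authors' normalized signal, a gene's reads divided by 1 size factor per library. Dividing by the value of 1 read gave whole reads (within 0.01) for all values, although in olfactory bulb P28 cKO replicate 2 that value is so close to 1 that the check is weak. Tables were scaled separately, so tests stay within a table or compare changes made within tables.

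The main test was limma 3.58.1 (R 4.3.3, lmFit and eBayes with trend) on log2(normalized reads + 1), over genes with a mean of at least 10 in the table, with Benjamini-Hochberg adjustment over all genes tested and a threshold of 0.05. Fold changes on this scale understate the change of low genes. All ages of a region entered 1 fit. Alternatives were edgeR 4.0.16 (quasi-likelihood) and DESeq2 1.42.0 on the recovered reads, pseudocounts of 0.1 and 8, no filter and a minimum mean of 100, TMM, quantile and median-ratio scaling, limma without trend or with array weights, and the leaving out of each library. The comparison of P7 to P14 changes between regions was chosen after seeing the data. Scripts were tested on simulated data. Intervals are 95% intervals, and the limit of a count of 0 is 3 reads.

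Named genes are the 6 members, for each pathway list and region up to a pair of called genes with the largest rise and a pair with the largest fall from P1 to P14, and the genes most alike to each member, predicted genes left out. Values of named genes in other regions stand beside them. The members and lists were chosen with earlier results of these data known.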

Additional observations from a re-analysis of the deposited data

Results flagged for a closer look

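In groups of 4 libraries, a library was marked when its gap to the nearest other was large against the range of the group (Dixon's 95% value). Of 24 groups tested, 6 had such a library. The rule marks about 1 in 20 by chance only where values are normally distributed, and Edn1 and Edn3 have few reads. Edn1 in cortex P28 cKO, with 0 reads in 3 of 4 libraries, is marked whatever the other value is. The 6 can therefore not be set against that rate. In cortex at P14, replicate 1 was lowest for Ednrb (3429 normalized reads), and replicate 3 was highest for Edn1 (26.2) and for Edn3 (53.0). In cortex at P28, control replicate 3 was highest for Ednra (179) and cKO replicate 4 for Edn1 (4.80). In hippocampus at P28, cKO replicate 4 was highest for Edn3 (40.8).

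Age changes that differed between regions by an interaction test in limma are listed next, as differences of log2 changes. From P1 to P14, the change of Ednrb was larger in hippocampus than in cortex by 1.96, in olfactory bulb than in cortex by 3.02, and in olfactory bulb than in hippocampus by 1.06. That of Ednra was larger in olfactory bulb than in cortex by 3.08 and than in hippocampus by 1.92. For Ece1 the difference was 1.55 for hippocampus minus cortex and -1.18 for olfactory bulb minus hippocampus. From P7 to P14, the Ednrb differences were 1.47, 3.36 and 1.89 in the same order of regions, and those of Ednra were 1.60 for olfactory bulb minus cortex and 1.61 for olfactory bulb minus hippocampus.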

How the results depend on the processing

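No paired analysis was possible because the replicate numbers follow accession order and the labels give no pairing between the ages or genotypes compared; P28 title numbers may link regions of 1 animal, which the labels do not state. Of 645 alternative values of the 37 called changes of single members, 607 kept their direction and their side of the threshold and 38 did not; the cause was not tested. Of 372 alternative counts of called members, 349 stayed within 1.5 times the reported count. The hippocampus P14 against P7 count of 1 became 3 without a filter and 0 under quantile scaling, limma without trend and array weights, and 0 to 1 when libraries were left out. The olfactory bulb counts at a minimum mean of 100, which tests fewer genes, were 1 for P7 against P1 and 2 for P14 against P7. Between regions, leaving out libraries gave 1 to 2 called members for olfactory bulb minus cortex and 1 to 3 for olfactory bulb minus hippocampus (P14 against P7).

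Of the called changes, the sign turned only for Ednrb in hippocampus from P7 to P14 (-0.29 under quantile scaling). The other sign changes belong to changes that were not called. Edn3 in cortex from P7 to P14 was 0.079 with TMM, 0.37 with quantile and 0.066 with median-ratio scaling, 0.31 with edgeR and 0.30 with DESeq2, and -0.59 to 0.25 with libraries left out. Ece2 in hippocampus from P1 to P14 was 9.8e-05 with a pseudocount of 8, 0.23 with quantile and 0.041 with median-ratio scaling, 0.03 with array weights, 0.18 with edgeR and 0.20 with DESeq2, and -0.44 to 0.58 with libraries left out. In olfactory bulb the same change was -0.15 to 0.52 with libraries left out.

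At P28 in cortex, Ednrb was 0.0026 with TMM, 0.013 with quantile scaling, 0.031 with array weights and 0.0043 with edgeR (-0.062 to 0.055 with libraries left out). Ece1 was -0.069 with array weights (-0.12 to 0.18), and Ece2 was -0.16 with edgeR and -0.17 with DESeq2 (-0.29 to 0.64). In hippocampus Ece2 was 0.047 with quantile scaling, 0.085 with array weights, 0.016 with edgeR, 0.017 with DESeq2 and 0.14 without the low-Rn45s library (-0.32 to 0.30). In olfactory bulb Ednra was -0.17 to 0.90 with libraries left out, and Edn3 was -0.19 with edgeR and -0.21 with DESeq2 (-0.72 to 1.32).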
